A study of Mus musculus with 10 samples.

Results

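Axon guidance ligands and receptors were described in the neonatal mouse cochlea: semaphorins with their plexin and neuropilin receptors, ephrins with Eph receptors, Slits with Robos, netrins and netrin-G proteins with Dcc and Unc5 receptors, and repulsive guidance molecules (RGMs) with neogenin and draxin. The members were picked out by gene symbol, under a rule set with earlier results of these data known. The rule found 77 of the 54532 genes in the table. Of these, 73 had at least 10 counts in 5 or more libraries and were tested among 18061 genes. The 4 members left untested were Robo3, with 38 counts over all libraries, and the antisense RNAs Plxna4os1, Plxna4os2 and Plxna4os3, with 63, 1 and 2 counts.

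Messenger RNA was measured in the soft tissue of both cochleae of 1 female mouse per library on postnatal day 1. The 5 control libraries carried the genotype Esrrgfl/fl, in which loxP sites flank Esrrg, the gene of estrogen-related receptor gamma. The 5 other libraries carried the genotype Esrrgfl/fl;Sox10-Cre and are called cKO in their titles, for conditional knockout. Both groups share the floxed gene, and the controls carry no Cre. Sox10 sequence drives Cre in otic epithelium, glia and melanocytes. By design, cells outside these lineages keep the gene, and the cochlear tissue would be a mixture of both. Library totals lay between 33487089 and 41779836 counts. Esrrg was higher in the libraries labelled cKO, at 89.7 ± 15.2 CPM (counts scaled to library size) against 58.5 ± 6.64 in controls (SD, n = 5 in both). The fitted log2 difference was 0.62 (SE 0.118, edgeR adjusted p = 0.0292). The call was lost in 6 of 10 fits that left out 1 library, with adjusted p up to 0.0998 without cKO 2, and gene-level counts do not show whether an exon was removed. Because the targeted gene goes against its label, each direction below rests on the label, and "labelled cKO" is written throughout. Markers of neurons, glia, hair cells, supporting cells, stria vascularis, mesenchyme and vessels all passed the count filter.

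Guidance proteins steer growing axons and migrating cells by attraction or repulsion. Secreted semaphorins mostly bind neuropilins, which signal through plexins, whereas membrane-bound semaphorins bind plexins directly. Ephrins and Eph receptors signal at cell contacts, Slits repel through Robos, and netrins attract through Dcc or repel through Unc5 receptors. In the developing cochlea, Eph and ephrin signalling between mesenchyme and spiral ganglion neurons is known to shape the radial nerve bundles, and the secreted semaphorin Sema3f with neuropilin 2 is known to limit where these neurons extend.

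Only Sema3e and Ntng2 passed an edgeR adjusted p under 0.05 among the 73 tested members, and both were lower in the libraries labelled cKO. Sema3e, a secreted ligand of plexin D1, fell 1.74-fold, and Ntng2, which encodes the membrane-anchored netrin-G2, fell 1.42-fold. No receptor was called, and no member was called higher. At an edgeR adjusted p under 0.05 the 2 calls compare with 0.615% of all 18061 tested genes (0.543% lower and 0.072% higher). At an unadjusted p under 0.05, 8 members were lower and 4 higher, beside 5.62% and 3.81% of all tested genes (9.43% in either direction). The groups did not overlap in CPM for 6 members, 3 lower (Sema3e, Ntng2 and Ephb1) and 3 higher (Sema3a, Ephb4 and Epha6), against 1.66% lower and 1.13% higher (2.79% in all) of the tested genes.

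The sequences before the starts of the 2 called genes are shown because these are the only called members. Both are from RefSeq on build GRCm38.p6, and each is the 250 bases that precede the start, written in the direction of transcription. The Sema3e window is chr5:14025026-14025275 on the plus strand, and the Ntng2 window is chr2:29248100-29248349 on the minus strand. Capitals mark the GC box GGGCGG, a binding motif of Sp transcription factors, on either strand.
Sema3e: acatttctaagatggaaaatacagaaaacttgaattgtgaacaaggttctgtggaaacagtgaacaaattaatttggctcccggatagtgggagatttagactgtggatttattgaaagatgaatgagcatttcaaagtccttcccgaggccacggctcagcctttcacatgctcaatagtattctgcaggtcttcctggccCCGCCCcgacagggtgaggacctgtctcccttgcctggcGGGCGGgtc
Ntng2: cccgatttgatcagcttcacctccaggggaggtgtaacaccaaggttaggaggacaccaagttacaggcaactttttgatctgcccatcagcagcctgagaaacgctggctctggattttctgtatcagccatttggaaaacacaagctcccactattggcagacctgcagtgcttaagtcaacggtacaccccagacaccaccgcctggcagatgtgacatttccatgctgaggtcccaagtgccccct
The motif occurred 2 times for Sema3e and 0 times for Ntng2. It was in 32.7% of all 32841 such windows and 53.8% of the 16269 windows of tested genes, and in 56 of the 80 windows (70.0%) of the 62 tested members that the table holds. The extended site of estrogen-related receptors, TNAAGGTCA, and the AGGTCA letters within it were absent from both windows on both strands. TNAAGGTCA was in 1.14% of all windows and AGGTCA in 14.0%, and among members only Ntn5 held the longer site while 11 held the shorter one. The Ntng2 window precedes an annotated transcript start that lies 4906 bases inside the gene, so it is not the only start of this gene.

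Levels per gene length were compared first, as the FPKM values deposited by the authors (fragment counts divided by gene length and by library size). The tested members had a median of 7.66 FPKM in the controls, against 4.37 for all tested genes, and ran from 0.0797 for Epha6 to 52.4 for Neo1. Neo1, the neogenin receptor of netrins and RGMs, stood at 52.4 ± 9.5 FPKM in controls and 58.1 ± 3.34 in the libraries labelled cKO (SD over 5 libraries, as for all such values). Ephb4, a receptor of ephrin-B2 in vessels, followed with 43.5 ± 2.48 and 49.6 ± 1.61 FPKM, and Plxnb2, a receptor of class 4 semaphorins, with 43.4 ± 6.27 and 50.6 ± 2.90. In the controls these 3 neighbours in the order did not differ beyond their spread.

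**Figure D1:**
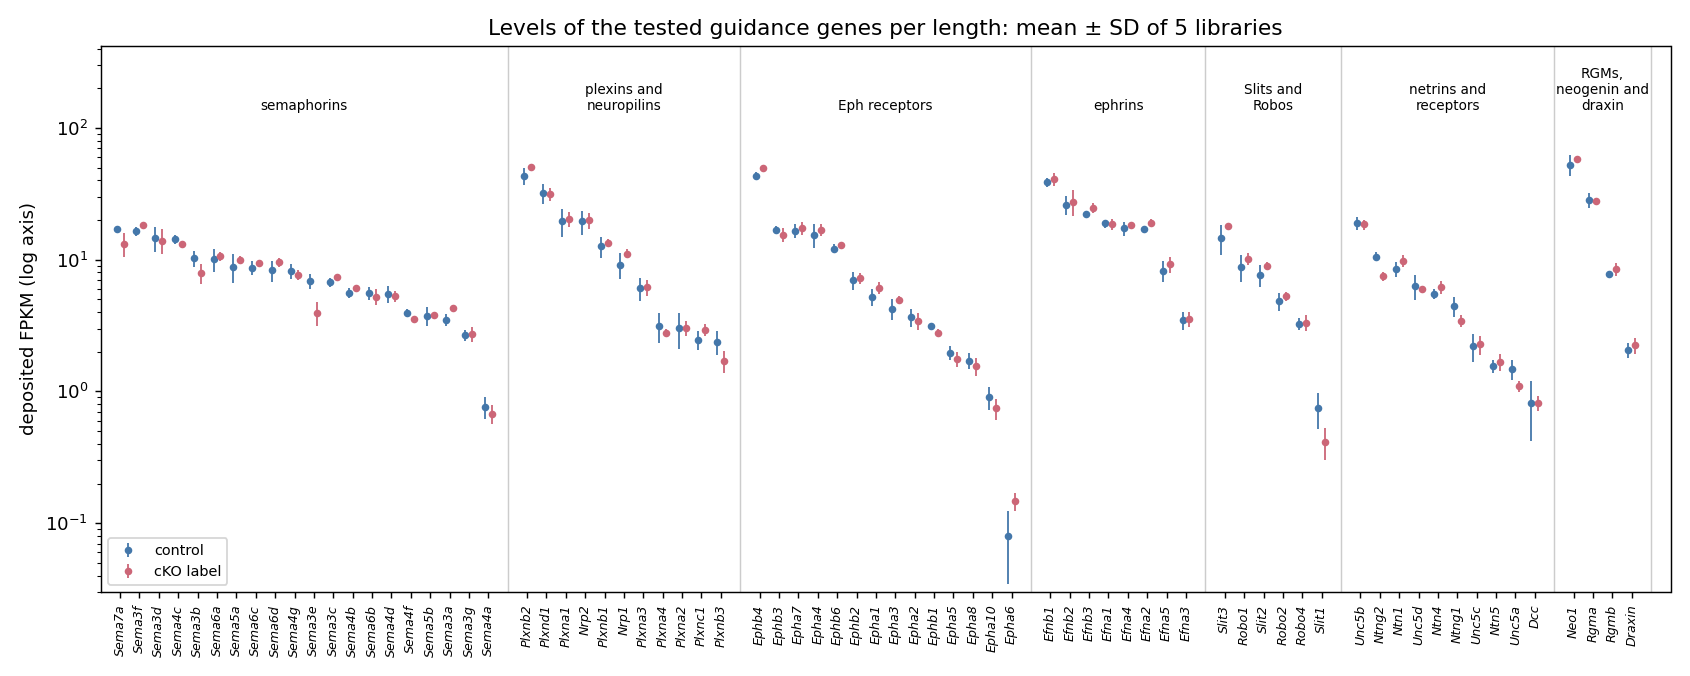
Deposited FPKM (vertical log axis) of each tested guidance gene by family, as mean and SD of 5 control (blue) and 5 libraries labelled cKO (red). Levels run from 0.0797 FPKM for Epha6 to 52.4 for Neo1 in controls, and the 2 groups lie apart for few genes, among them Sema3e and Ntng2.

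Among ligands, the 8 ephrins formed the family with the highest control median of those with more than 4 members, at 18.07 FPKM. Efnb1, Efnb2 and Efnb3, transmembrane ligands of EphB receptors, led it with 38.7 ± 3.03, 26.1 ± 4.24 and 22.1 ± 1.44 FPKM in controls. The corresponding levels in the libraries labelled cKO were 41.03 ± 4.69, 27.6 ± 6.20 and 24.9 ± 2.25 FPKM. The 20 semaphorins had a control median of 7.53 FPKM, led by Sema7a (17.3 ± 0.802), Sema3f (16.4 ± 1.30) and Sema3d (14.5 ± 3.09), which lay close together. Slit3 and Slit2, ligands of Robo receptors, had 14.5 ± 3.7 and 7.66 ± 1.41 FPKM in controls, while Slit1 had 0.750 ± 0.230. Ntn1, the founding netrin, had 8.50 ± 1.08 FPKM, and Rgma and Rgmb had 28.4 ± 3.79 and 7.83 ± 0.408.

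Receptor levels spread more widely. After Plxnb2, the plexins were led by Plxnd1 with 31.97 ± 5.44 and Plxna1 with 19.7 ± 4.72 FPKM in controls, and Nrp2 (19.5 ± 4.03) exceeded Nrp1 (9.13 ± 2.03). Ephb3 and Epha7, contact receptors of ephrins, had 16.9 ± 1.14 and 16.6 ± 2.05 FPKM, which do not differ beyond their spread, and Epha4 had 15.5 ± 3.21. Robo1 had 8.87 ± 2.07 FPKM. Among the Unc5 and Dcc receptors, Unc5b led with 18.9 ± 2.13 FPKM, and Dcc, the attractive receptor, had 0.814 ± 0.390.

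The change of each called ligand was read library by library. Sema3e (ENSMUSG00000063531; GRCm38 chromosome 5, 14025276 to 14256689, plus strand) had 59.8, 54.2, 68.7, 76.3 and 62.4 CPM in controls 1 to 5, and 33.1, 35.7, 45.1, 43.3 and 27.3 CPM in the libraries labelled cKO 1 to 5. Every library labelled cKO lay below every control, and the means were 36.9 ± 7.35 and 64.3 ± 8.48 CPM. The log2 fold change was -0.80 (SE 0.134, edgeR adjusted p = 0.0128). Its counts were 1952 to 2749 in the controls and 1009 to 1809 in the other group. Leaving out control 3 or cKO 2 moved the adjusted p to 0.0518 and 0.0535, with log2 fold changes of -0.78 and -0.79.

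Ntng2 (ENSMUSG00000035513; GRCm38 chromosome 2, 29194541 to 29253005, minus strand) is a relative of the netrins that stays on the cell surface and binds Lrrc4 rather than Dcc or Unc5. It had 39.5, 45.1, 44.99, 44.1 and 38.3 CPM in controls 1 to 5, and 32.03, 29.4, 31.8, 26.3 and 30.02 CPM in the libraries labelled cKO 1 to 5. The groups did not overlap, with means of 42.4 ± 3.27 and 29.9 ± 2.33 CPM. The log2 fold change was -0.50 (SE 0.0849, edgeR adjusted p = 0.0138). Without control 3 or without cKO 5 the adjusted p was 0.0563 and 0.052, at log2 fold changes of -0.48 and -0.51. Exons of Ntng2 overlap those of 6530402F18Rik on the same strand, which had 16.8 ± 3.78 and 13.03 ± 1.32 CPM, so reads in the shared part cannot be assigned to either gene.

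The partners of both ligands showed no call. Plxnd1, the receptor of Sema3e, had 201, 184, 269, 268 and 256 CPM in controls 1 to 5 and 207, 221, 273, 245 and 216 CPM in the libraries labelled cKO, with overlap throughout. Its log2 fold change was -0.018 (SE 0.118, edgeR adjusted p = 0.968), and its sign turned in 5 of 10 fits that left out 1 library, between -0.099 and 0.036. Nrp1, a co-receptor that can modify this response, had a log2 fold change of 0.28 (SE 0.139, adjusted p = 0.561). Lrrc4, the netrin-G2 ligand, had 15.1 ± 2.12 and 13.4 ± 1.75 CPM and a log2 fold change of -0.18 (SE 0.122, adjusted p = 0.661).

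**Figure D2:**
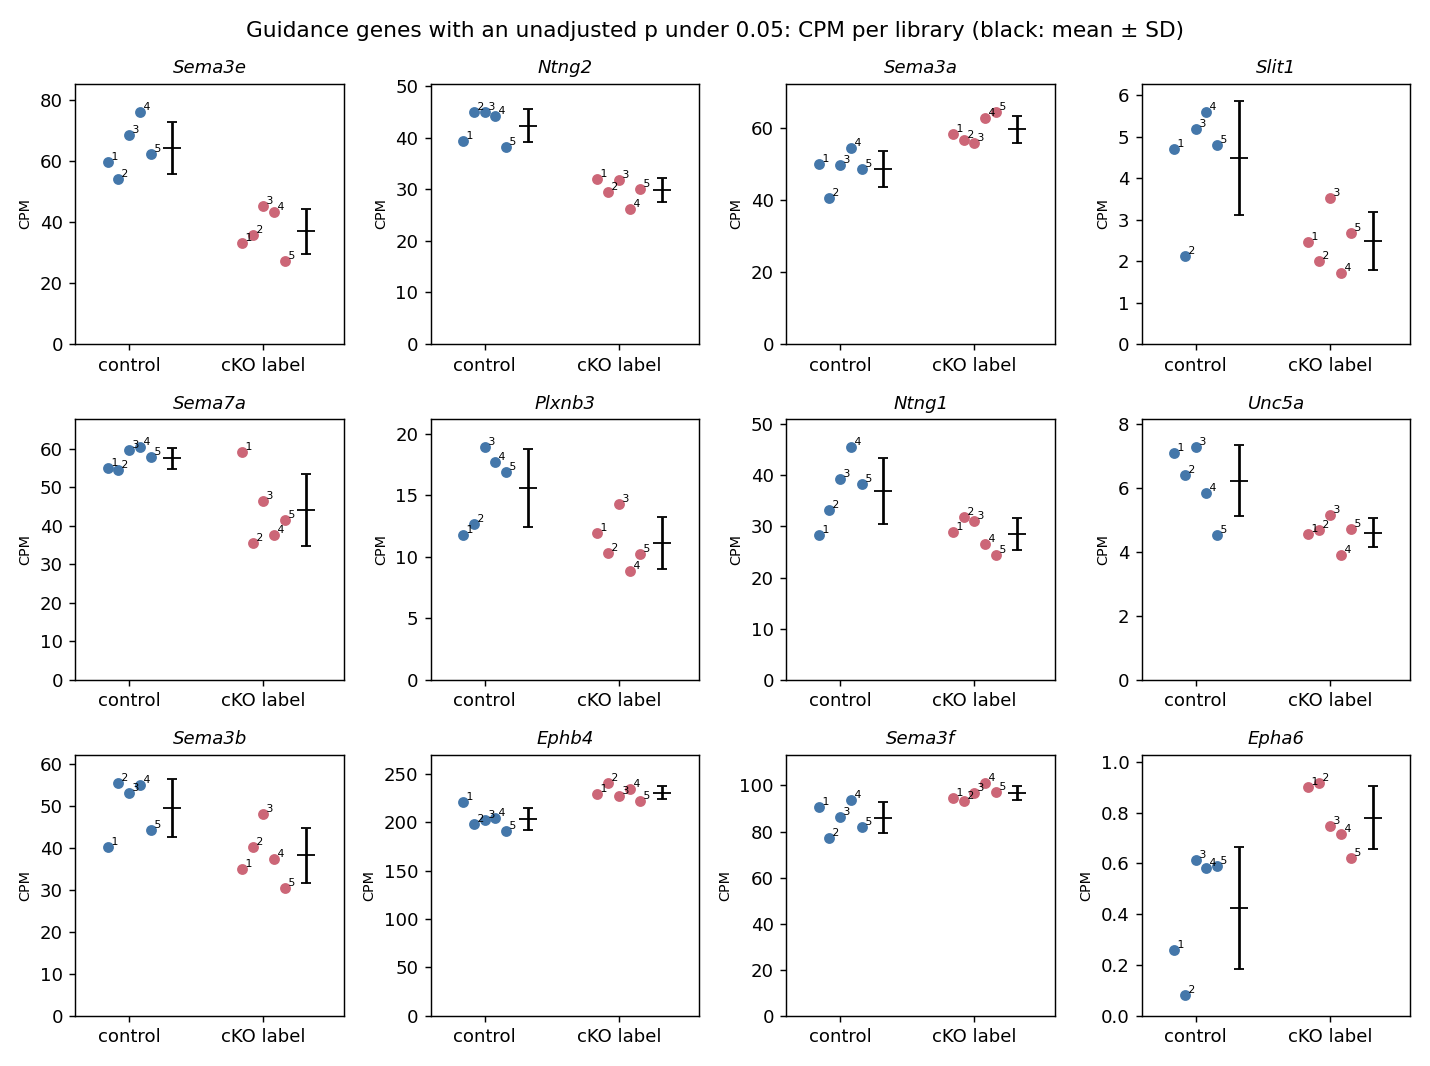
CPM (vertical axis, from 0) of the 12 guidance genes with an unadjusted p under 0.05, as 1 point per library with its replicate number and the mean and SD of 5 in black; blue is control and red the cKO label. The groups lie apart for Sema3e, Ntng2, Sema3a, Ephb4 and Epha6 and overlap for the other 7 genes.

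By role, 39 ligands had 15 fitted values below 0 and 24 above (median 0.076), and 34 receptors had 13 below and 21 above (median 0.033). Both calls were ligands. The semaphorins split evenly in direction, 10 lower and 10 higher, around a median of -0.029 on the log2 scale, against -0.0096 over all tested genes. The class 3 genes Sema3d, Sema3a and Sema3e lie in a row on chromosome 5, with 536 kb between Sema3d and Sema3a and 423 kb between Sema3a and Sema3e. Sema3a, a secreted repellent that acts through neuropilin 1, had 49.96, 40.7, 49.8, 54.5 and 48.5 CPM in controls and 58.4, 56.6, 55.8, 62.7 and 64.6 CPM in the libraries labelled cKO. These ranges did not overlap, but the log2 fold change of 0.29 (SE 0.0859) had an edgeR adjusted p of 0.228 and did not pass. Sema3d had a log2 fold change of -0.061, so the 3 neighbours had fitted values of both signs. The 7 secreted class 3 genes had a median of 0.017, and the 13 membrane-bound genes of classes 4 to 7 had a median of -0.059.

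Sema3b and Sema3f, another secreted pair 72.3 kb apart on chromosome 9, also had opposite signs. Sema3b had 40.1, 55.4, 52.96, 54.97 and 44.2 CPM in controls and 34.97, 40.1, 48.1, 37.4 and 30.4 CPM in the libraries labelled cKO, a log2 fold change of -0.37 (SE 0.126, adjusted p = 0.333). Sema3f had 77.1 to 93.8 CPM in controls and 93.4 to 101 CPM in the libraries labelled cKO, at 0.17 (SE 0.0709, adjusted p = 0.484). Neither passed, and both had overlapping ranges. Sema7a, which is tethered to the membrane and binds plexin C1 and integrins, had 55.05, 54.4, 59.7, 60.3 and 57.8 CPM in controls. In the libraries labelled cKO it had 59.04, 35.6, 46.3, 37.7 and 41.4 CPM, so that cKO 1 alone lay within the control range. Its log2 fold change was -0.38 (SE 0.119, edgeR adjusted p = 0.277), and without cKO 1 it was -0.51 with an adjusted p of 0.0243. In 9 of the 10 fits that left out 1 library Sema7a did not pass, with adjusted p up to 0.551.

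Plexins and neuropilins had 8 fitted values above 0, 3 below and 0 calls, around a median of 0.029 on the log2 scale. Its sign rested on single libraries, at -0.079 without control 2, -0.0061 without cKO 3 and -0.0025 without cKO 4. Plxnb3, a receptor of Sema5a, had 11.8 to 18.9 CPM in controls and 8.87 to 14.3 CPM in the libraries labelled cKO, a log2 fold change of -0.48 (SE 0.159, adjusted p = 0.317). It was the only gene of this family with an unadjusted p under 0.05. Sema5a itself, its ligand, had a log2 fold change of 0.17 (SE 0.152).

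Eph receptors and ephrins together held 22 tested members and 0 calls. Ephb4 had 221, 199, 203, 205 and 191 CPM in controls and 230, 241, 227, 235 and 222 CPM in the libraries labelled cKO, without overlap. The difference was small, at a log2 fold change of 0.18 (SE 0.0665, edgeR adjusted p = 0.395), and exons of Ephb4 overlap those of Zan on the opposite strand. Ephb1 also had ranges that did not overlap, 20.8 to 23.4 CPM in controls and 17.4 to 20.6 CPM in the other group, at -0.17 (SE 0.0831, adjusted p = 0.543). Epha6 was counted only 3 to 23 times in the controls and 23 to 32 times in the other group, with a log2 fold change of 0.87 (SE 0.390, adjusted p = 0.505). Its exons overlap those of an antisense gene. Of the 8 ephrins, 7 had a fitted value above 0, within a range of -0.020 to 0.16, and their median was 0.077.

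Among Slits and Robos, 5 of 6 tested members had a fitted value above 0 and the median log2 fold change was 0.15, or 0.033 without control 2. Slit1 had the lowest value, -0.86 (SE 0.254, edgeR adjusted p = 0.235), with 4.71, 2.11, 5.19, 5.61 and 4.8 CPM in controls and 2.46, 2.00, 3.52, 1.71 and 2.68 CPM in the libraries labelled cKO. Control 2 alone lay within the range of the other group, and without it the log2 fold change was -1.04 with an adjusted p of 0.0109. In 9 of the 10 fits that left out 1 library Slit1 did not pass, with adjusted p up to 0.461. Slit3 and Slit2, at 0.31 (SE 0.158) and 0.22 (SE 0.120), did not pass.

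In the netrin family, both netrin-G genes and Unc5a accounted for the values with an unadjusted p under 0.05. Ntng1, which encodes netrin-G1, had 28.3, 33.2, 39.3, 45.5 and 38.3 CPM in controls and 28.8, 31.8, 31.1, 26.6 and 24.4 CPM in the libraries labelled cKO. These ranges overlapped, and the log2 fold change was -0.37 (SE 0.122, edgeR adjusted p = 0.317). Unc5a, a repulsive netrin receptor, had 4.52 to 7.27 CPM in controls and 3.90 to 5.14 CPM in the libraries labelled cKO, at -0.43 (SE 0.146, adjusted p = 0.333). Its exons overlap those of Hk3 on the opposite strand. Ntn1, Ntn4 and Ntn5, the secreted netrins, had values of 0.20, 0.16 and 0.10, and none passed. The 4 tested RGM, neogenin and draxin genes lay between -0.028 and 0.14.

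**Figure D3:**
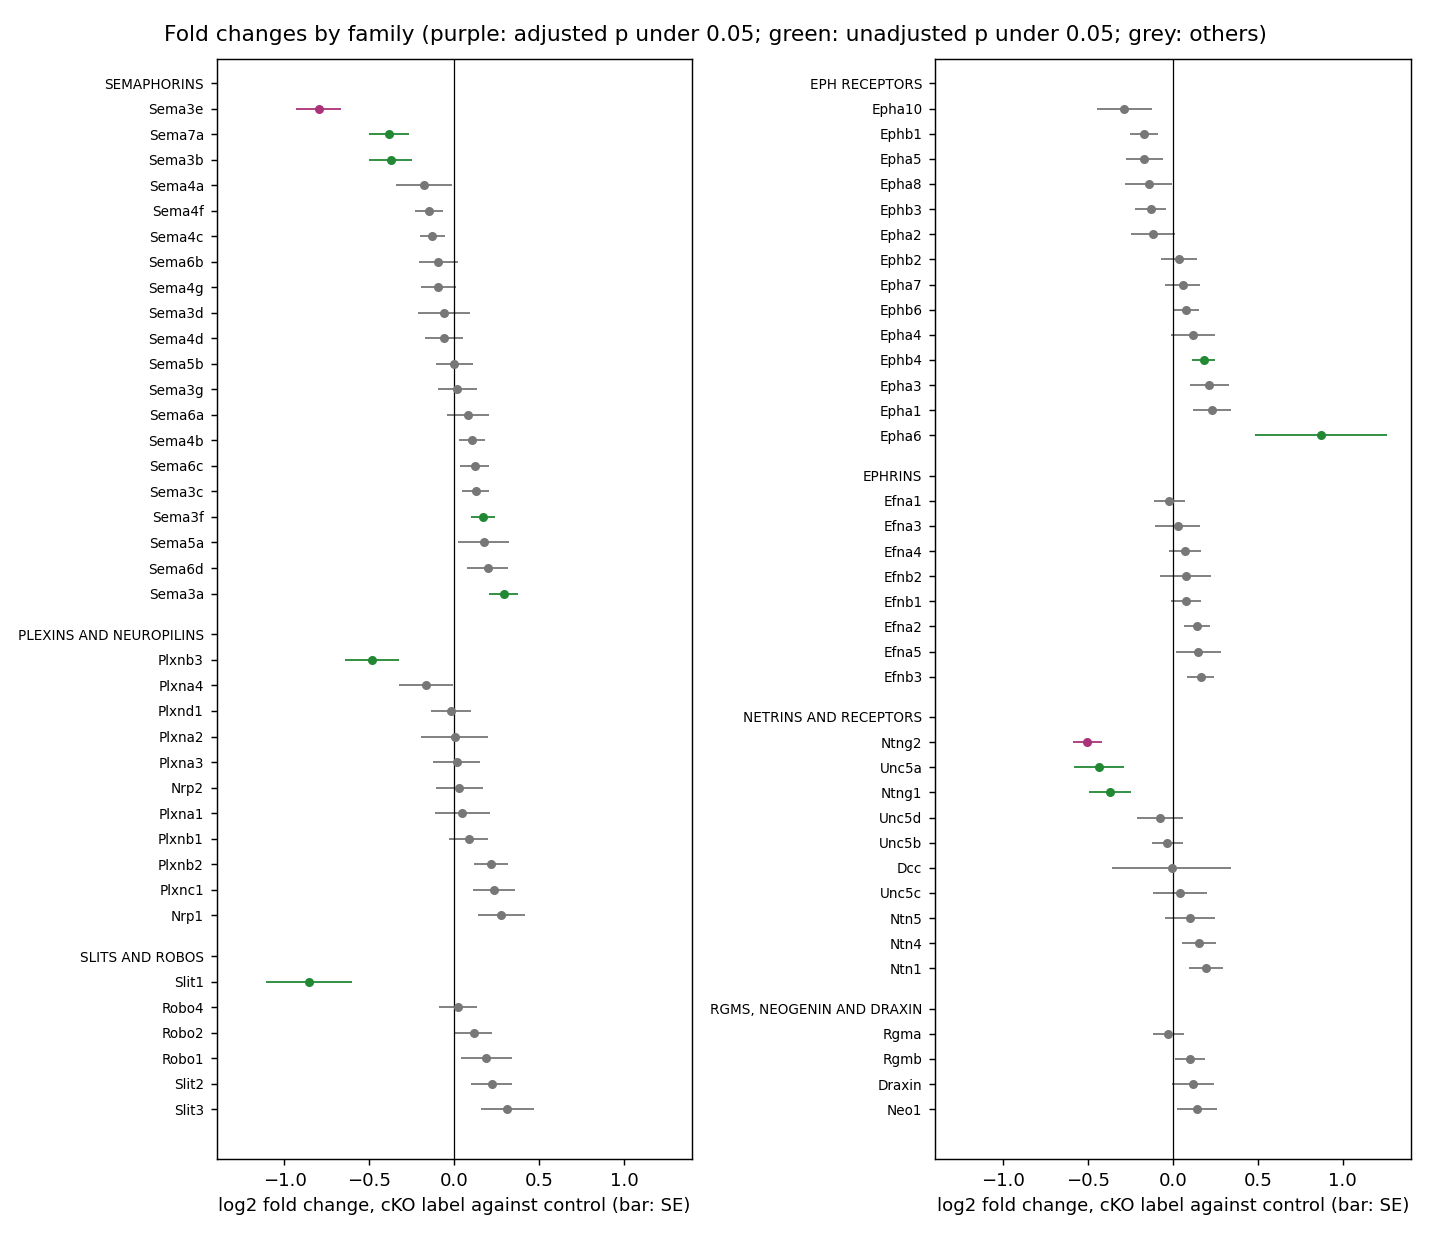
Log2 fold change of the libraries labelled cKO against control (horizontal axis, bars show SE) for the 73 tested guidance genes by family. The purple points are the 2 calls, Sema3e and Ntng2, the green points have an unadjusted p under 0.05 only, and 69 of 73 points lie within 0.5 of 0.

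Other genes of guidance signalling were read from lists of co-receptors and effectors. Of 51 co-receptors and further ligands 0 were called (median 0.048 on the log2 scale), and 5 were lower and 2 higher at an unadjusted p under 0.05 (13.7%, beside 9.43% of all tested genes). The 5 lower ones were the axonal adhesion genes L1cam, Chl1, Cntn2 and Cntn5 and the Nogo receptor relative Rtn4rl1, with log2 fold changes from -0.45 for Cntn2 to -0.27 for Rtn4rl1. The 2 higher ones were Lrig3 (0.26, SE 0.0905) and Gas1 (0.22, SE 0.0834), a co-receptor of hedgehog signals. Of 77 cytoplasmic effectors 0 were called, with a median of -0.018, and 8 were lower and 3 higher at an unadjusted p under 0.05 (14.3%, beside the same 9.43%). The lower ones included Ngef (-0.99, SE 0.295), an exchange factor that acts below EphA receptors, and Crmp1 (-0.34, SE 0.111), which transmits semaphorin signals. Gap43, Stmn2 and Tubb3, growth cone and axon genes at -0.32, -0.38 and -0.39, also stand in the neuron marker list, and Fyn, Chn2 and Cdk5r1 had -0.18, -0.28 and -0.31. The 3 higher ones were Nfatc3, Nfatc4 and Enah, at 0.26, 0.19 and 0.18.

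Markers of neurons and glia were read beside the called ligands. In bulk tissue, fewer cells of a type and less RNA per cell cannot be told apart. All 22 spiral ganglion neuron markers were tested, and 17 had fitted values below 0, around a median of -0.28 on the log2 scale. Of them 4 were called lower, among them Elavl4, Calb2 and Slc17a7, beside 0.543% of all tested genes. At an unadjusted p under 0.05, 11 were lower and 2 higher, beside 5.62% and 3.81% of all tested genes. The 2 higher ones were Syt1 (0.23, SE 0.0965) and Gata3 (0.21, SE 0.0898). The summed level of the 22 markers was 2122 to 2235 CPM in controls and 1409 to 2221 CPM in the libraries labelled cKO, and none was at 0. The sum in cKO 1, 2221 CPM, was within the control range, and those in the other 4 libraries labelled cKO, 1409 to 1954 CPM, were below every control. These sums weigh abundant markers most (control median 14.3 FPKM, maximum 115), and Prox1 also stands in the supporting cell list. In cKO 1 Sema3e and Ntng2 stood at 33.1 and 32.03 CPM, and Sema7a and Ntng1 at 59.04 and 28.8 CPM. The part of neuron content in the result was not tested for any member. Of 15 markers of Schwann cells and satellite glia, 13 had fitted values below 0 and 0 were called (median -0.41). At an unadjusted p under 0.05, 8 of these were lower and 0 higher, beside 5.62% and 3.81% of all tested genes. Their summed level was 1715 to 1931 CPM in controls and 1197 to 1769 CPM in the libraries labelled cKO. Only the sum in cKO 3, 1769 CPM, was within the control range, and that in cKO 1 was 1579 CPM. Of 13 brain genes, 10 were tested and 4 called lower (Olig1, Olig2, Aqp4 and Cbln1), beside 0.543% of all tested genes. At an unadjusted p under 0.05, 4 brain genes were lower and 3 higher, beside the same 5.62% and 3.81% of all tested genes. Fitted values of the 10 tested brain genes ran from -2.75 (SE 0.267), for Olig1, to 0.77. Sums of the brain genes were 437 to 568 CPM in controls and 552 to 598 CPM in the libraries labelled cKO, and Gabra6 was at 0 in all libraries. The brain sum also weighs its most abundant genes most (control median 2.25 FPKM, maximum 78.3). Olig1 added a mean of only 7.19 CPM to it in controls and 1.06 CPM in the other group. The sum therefore does not show whether brain content differed between the groups. The part of the glial and brain genes in the result was not tested.

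**Figure D4:**
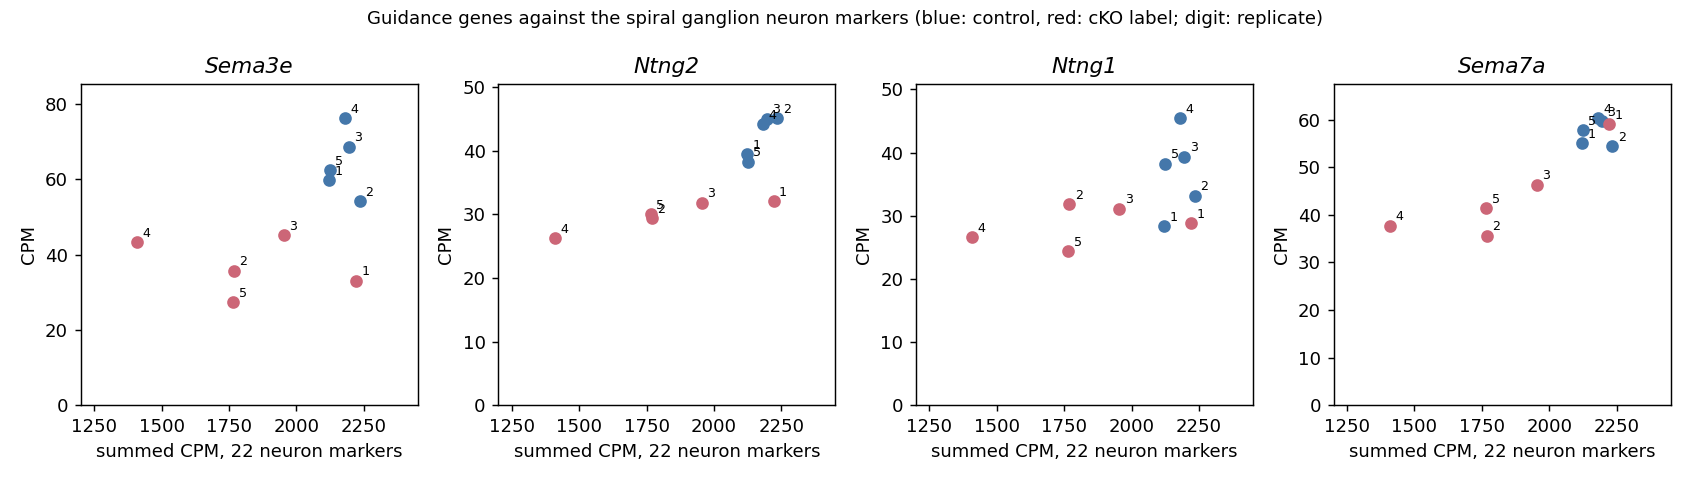
CPM of Sema3e, Ntng2, Ntng1 and Sema7a (vertical axes, from 0) against the summed CPM of 22 spiral ganglion neuron markers (horizontal axis) in each library; blue is control, red the cKO label, and digits are replicate numbers. The library labelled cKO 1 has a neuron sum of 2221 CPM, within the control range of 2122 to 2235, and the other 4 red points lie at 1409 to 1954 CPM, below every control.

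The balance of directions over the members depended on control 2. This library held the lowest control value for 48 of the 73 tested members (65.8%), against 35.4% of all tested genes. Of the 3947 tested genes at least as long as the median member (6641 bases), it held the lowest value for 70.5%. Dcc showed this most plainly, with 1.17 CPM in control 2 and 7.29 to 9.46 CPM in the other controls. Every family except the ephrins was lowest there among controls. Plexins and neuropilins (median 9054 bases) had a mean log2 CPM of 5.80 against 6.35 to 6.55 in the other controls. Semaphorins (median 5790 bases) had 5.26 against 5.46 to 5.54. The ephrins, the family with the shortest genes (median 2809 bases), had 5.50 against 5.48 to 5.51. Marker sums of control 2 also stood apart. It had the highest sum among controls for erythroid cells (2932 CPM, others 719 to 2225) and for neurons (2235 CPM, others 2122 to 2196). Its sums were the lowest for supporting cells (2068 CPM, others 2579 to 3041) and marginal cells (971 CPM, others 1002 to 1308). The cause of the low values in control 2 was not tested. With all libraries 28 of 73 members had a fitted value below 0, against 52.3% of all tested genes, and the median log2 fold change was 0.042. Without control 2 these were 38 members and -0.028, and the calls were Sema3e, Ntng2 and Slit1, all lower. An offset for gene length gave 32 members below 0, a median of 0.029 and the calls Sema3e and Ntng2. The median over all tested genes was 0.011 with that offset and -0.0096 without it.

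**Figure D5:**
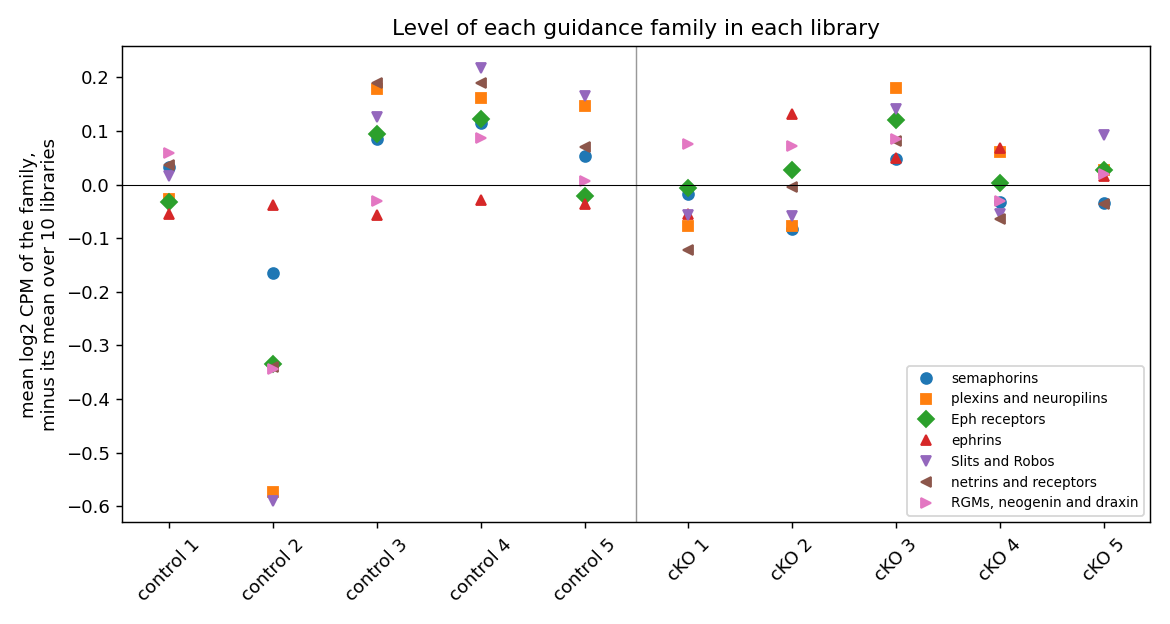
Mean log2 CPM of the tested members of each family in each library, minus the family's mean over the 10 libraries (vertical axis). Control 2 lies below the other controls for every family except the ephrins, which stood at 5.50 there against 5.48 to 5.51.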

How the data were processed

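The members and gene lists were chosen with earlier results of these data known. Per the submitters' processing notes, STAR 2.5, HTSeq 0.61 and DESeq2 2 were used with build mm10; the annotation release and the use of strand are not given in the sources used here. The authors deposited whole-number counts per Ensembl gene and FPKM values, per the file headers 1 column per library, with 0 rows lacking a gene ID. Columns were matched to libraries by the library names in the labels. Gene lengths implied by counts over FPKM were within 0.1% of GENCODE M21 (GRCm38) exon lengths for 95.3% of 13928 well-counted genes, so symbols, positions and exon overlaps were taken from it for 54495 of 54532 IDs.

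Genes with at least 10 counts in 5 libraries were tested with edgeR 4.0.16 (R 4.3.3; TMM scaling, robust quasi-likelihood F-test, genotype as the only term), with Benjamini-Hochberg adjustment over all 18061 genes and calls at an adjusted p under 0.05. The SE is the log2 fold change divided by the square root of F. CPM used TMM-scaled totals, and library totals of 33487089 to 41779836 counts limit precision mainly for the lowest genes. A two-sided exact permutation test of mean log2 CPM gave p = 0.00794 for both called genes, the smallest that 5 libraries against 5 allow, which follows from the lack of overlap and adds nothing to it. Named are Esrrg, Sox10, members called or with an unadjusted p under 0.05, the 3 members of each family with the highest control FPKM, partners of called members, and called genes of the further lists; others named beside them (Epha4, Sema5a, Ephb1, Dcc, Rtn4rl1, Ngef, Crmp1 and their list neighbours among them) were chosen after their values were seen. Sox10 had a log2 fold change of 0.14 (SE 0.0924). Marker lists of hair cells, supporting cells, marginal cells, melanocytes, mesenchyme, endothelium, macrophages, erythroid cells and proliferation had medians of -0.026, -0.0030, 0.21, 0.14, 0.049, 0.11, 0.061, -0.75 and -0.25, with 1 call in all, Fgf10, lower. 1 called gene of the neuron marker list is not reported here. The script was tested on simulated data. Alternatives were DESeq2 1.42.0, limma 3.58.1 (voom, and log2 FPKM with pseudocounts of 1 and 0.1), other scalings, filters and thresholds, a gene length offset, a replicate block and leaving out each library.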

Additional observations from a re-analysis of the deposited data

Results flagged for a closer look

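Each of 25 measures (the 12 members with an unadjusted p under 0.05, Plxnd1, Nrp1, Lrrc4, Dcc, Esrrg, and means over each family and over all members) was examined in both groups of 5 for a library whose gap to the next exceeded Dixon's 95% critical value of 0.71 of the group's range. Chance flags about 5% of groups. Of the 9 cases found 8 were in control 2, but they share that library and many share genes, and Dcc was included after its values were seen, so their number is not compared with chance. Control 2 was low for Slit1 (2.11 CPM, others 4.71 to 5.61), for Nrp1 (55.7 CPM, others 93.6 to 108) and for Dcc (1.17 CPM, others 7.29 to 9.46). Its mean log2 CPM was low for RGMs, neogenin and draxin (6.07, others 6.38 to 6.50), for Slits and Robos (5.05, others 5.66 to 5.86), for netrins and receptors (4.20, others 4.58 to 4.73), for plexins and neuropilins (5.80, others 6.35 to 6.55) and over all 73 tested members (5.12, others 5.44 to 5.56). The remaining case was the Eph receptors in cKO 3 (5.04, others 4.92 to 4.95).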

How the results depend on the processing

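In the 12 alternative fits with all 10 libraries Sema3e and Ntng2 were called lower at an adjusted p under 0.05 and 0 members higher, over log2 fold changes of -0.85 to -0.67 and -0.52 to -0.45. At an adjusted p under 0.01 the calls numbered 0. Leaving out 1 library gave 0 to 3 lower calls and 0 higher calls: 0 without control 3, 1 without cKO 2 or without cKO 5, and 3 without control 2 or without cKO 1. Without control 2 the median was -0.031 for Eph receptors (0.047 with all libraries), 0.039 for RGMs, neogenin and draxin (0.11), -0.16 for netrins and receptors (-0.019) and -0.080 for semaphorins (-0.029). Without 1 library the netrin median ran from -0.16 to 0.035 and the semaphorin median from -0.080 to 0.032. The Esrrg log2 fold change was 0.61 with the replicate block, 0.57 on log2(FPKM + 1) and 0.61 on log2(FPKM + 0.1), with adjusted p of 0.0623, 0.0511 and 0.0512, and 0.54 to 0.70 over the fits without 1 library. For Plxnd1 the fits without 1 library ran from -0.099 to 0.036, with a positive sign in 5 of 10. The ephrin median was 0.13 with the gene length offset and 0.13 with that offset and the replicate block. Medians of the other 6 families moved by less than 1 SD between libraries in every setting. That SD includes control 2, whose low values widen it (0.24 for plexins and neuropilins, 0.049 for ephrins). It therefore cannot show that the medians hold without control 2. The replicate numbers were not used as pairs in the main fit, and the values do not settle whether they are pairs. Deviations of same-numbered libraries correlated between 0.023 and 0.18, above 0.1 in 2 of 5 pairs. Those of libraries with other numbers correlated between -0.28 and 0.17, and 6 of 10 libraries correlated best with their own number. With the replicate block the adjusted p was 0.0032 for Sema3e and 0.0333 for Ntng2. The block left 81 lower and 16 higher calls over all genes, against 98 and 13. Over all genes DESeq2 called 253 lower and 54 higher, no filter 124 and 19, and the gene length offset 136 and 24, or 155 and 43 with the replicate block. Without 1 library the calls over all genes ranged from 44 to 177 lower and 7 to 17 higher.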
